A study of Mus musculus with 6 samples.

Results

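The 4 platelet-derived growth factor (PDGF) ligand genes, Pdgfa, Pdgfb, Pdgfc and Pdgfd, were followed with 4 genes of the mural cells that surround vessels, Pdgfrb, Cspg4, Ndufa4l2 and Higd1b. Every probe set whose single annotated gene symbol was one of these 8 was taken, which gave 15 of the 45037 probe sets on the array. Of these, 14 lay above the filter on dim probe sets, and each of the 8 genes had at least 1 of them.

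The arrays came from mesenteric arteries, the small arteries of the gut, of 3 knockout mice (animals 72, 73 and 86) and 3 control mice (animals 30, 74 and 75), with 1 array per mouse. Knockout mice carried loxP-flanked beta1 integrin and an sm22alphaCRE transgene, a recombinase under the promoter of a smooth muscle gene. Control mice carried the same floxed alleles without Cre. All 6 mice were on a mixed background that included FVB, SVJ129 and C57BL/6. All had 14 daily doses of 1 mg tamoxifen, begun at 5 weeks of age, and were 7 weeks old. Because no Cre-positive mouse without floxed alleles was measured, an effect of Cre itself cannot be told apart from the loss of beta1 integrin. Whole arteries were extracted, so fewer cells of a type and less RNA per cell cannot be told apart in any value below.

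PDGFs are secreted dimers that bind a pair of receptor tyrosine kinases, PDGF receptor alpha and PDGF receptor beta. PDGF-A and PDGF-B are processed inside the cell, whereas PDGF-C and PDGF-D are secreted as latent proteins whose CUB domain has to be cut off by extracellular proteases. In blood vessels, endothelial PDGF-B attracts and maintains pericytes and smooth muscle cells through PDGF receptor beta, while PDGF receptor alpha is mainly carried by fibroblast-like cells.

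Promoter sequence was set beside the ligands to show the letters before their starts. In the RefSeq promoter table (GRCm38.p6), 4 of the 8 members matched, namely Pdgfa, Pdgfc, Pdgfd and Cspg4. The 250 bases before the annotated start are printed for Pdgfc, the ligand that rose, for Pdgfa, whose arrays were also higher, and for Pdgfd, whose arrays were lower. Capitals mark a match on either strand to 1 of 5 searched motifs: the GC box GGGCGG bound by Sp1-type factors, the EGR motif GCGNGGGCG, the TATA box TATAAA, the AP-1 motif TGANTCA and the CArG box bound by serum response factor.
Pdgfc, chr3:81036166-81036415, plus strand: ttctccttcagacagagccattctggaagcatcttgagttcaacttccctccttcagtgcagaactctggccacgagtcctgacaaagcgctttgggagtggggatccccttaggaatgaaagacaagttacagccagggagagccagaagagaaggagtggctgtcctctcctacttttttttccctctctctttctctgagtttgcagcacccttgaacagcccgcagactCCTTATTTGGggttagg
Pdgfa, chr5:138994945-138995194, minus strand: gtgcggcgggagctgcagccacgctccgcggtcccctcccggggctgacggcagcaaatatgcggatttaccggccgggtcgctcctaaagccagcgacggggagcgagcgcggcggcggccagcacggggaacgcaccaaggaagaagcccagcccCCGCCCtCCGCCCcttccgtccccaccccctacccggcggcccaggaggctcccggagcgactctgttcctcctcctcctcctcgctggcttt
Pdgfd, chr9:6168236-6168485, plus strand: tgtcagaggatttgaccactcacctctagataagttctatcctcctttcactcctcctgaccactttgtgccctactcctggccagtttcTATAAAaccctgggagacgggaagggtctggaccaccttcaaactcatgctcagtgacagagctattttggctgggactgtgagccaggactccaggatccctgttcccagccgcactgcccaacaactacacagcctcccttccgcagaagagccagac
Pdgfc held 1 CArG box, 8 to 17 bases before the start, a motif found in 1.47% of the 32851 promoter windows of the table. The printed Pdgfa window held 2 GC boxes, which do not overlap each other, and 32.7% of windows hold at least 1. The table has a second Pdgfa start, not printed, whose window held 1 GC box at a GC content of 66.4%. Pdgfd held 1 TATA box, 155 to 160.0 bases before its start, against 12.4% of windows. No EGR or AP-1 match lay in the 3 printed windows, where 4.7% and 6.75% of all windows have one. The GC content was 50.8% for Pdgfc, 72.4% for the printed Pdgfa window and 53.6% for Pdgfd, with a median of 52.4% over all windows. These matches describe the letters and say nothing on binding.

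Probe set intensities, as deposited, had medians of 69.2 to 72.6 on the knockout arrays and 62.8 to 68.1 on the control arrays. They were tested as log2(intensity + 1) after quantile normalization, and a gene or probe set was called at a Benjamini-Hochberg adjusted p under 0.05. All log2 differences are knockout minus control with n = 3 arrays a group, a number that limits the precision. Itgb1, the targeted gene, averaged 10.61 ± 0.13 in knockout and 11.35 ± 0.40 in control arrays on the log2 scale (SD, n = 3 each), without overlap (-0.73, limma adjusted p = 0.127). Myh11, the smooth muscle myosin heavy chain, stood at 13.02 ± 0.15 in knockout and 13.48 ± 0.13 in control arrays (SD, n = 3 each), and all 10 smooth muscle markers looked at were above the filter. Knockout 86 is labelled F and the other 5 arrays M, and Xist stood at 11.83 in knockout 86 against 5.29 to 6.09 elsewhere.

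Of the 8 member genes, 1 rose in knockout arteries and 0 fell, where 1.76% of the 10654 genes tested rose and 0.657% fell (2.42% in all). Of the 8, 3 were higher and 1 lower at an unadjusted p under 0.05, a level that 21.4% of all genes reached. Among the ligands Pdgfc rose, Pdgfa and Pdgfb were higher without passing the threshold, and Pdgfd was lower without passing it. None of the 4 mural genes passed (limma; 0 also at an unadjusted p under 0.05). Groups did not overlap for all 4 ligands and overlapped for all 4 mural genes. Knockout arrays were higher without overlap for 3 of the 8, as for 13% of all genes, and lower without overlap for 1, as for 15.1%. Of the 14 member probe sets above the filter, 1 rose and 0 fell, where 1.05% of 20130 rose and 0.253% fell. Of the 14, 6 were higher without overlap and 1 lower, as were 12.5% and 13.4% of all probe sets. The median difference was 0.37 over the 8 members and -0.05 over all genes.

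**Figure D1:**
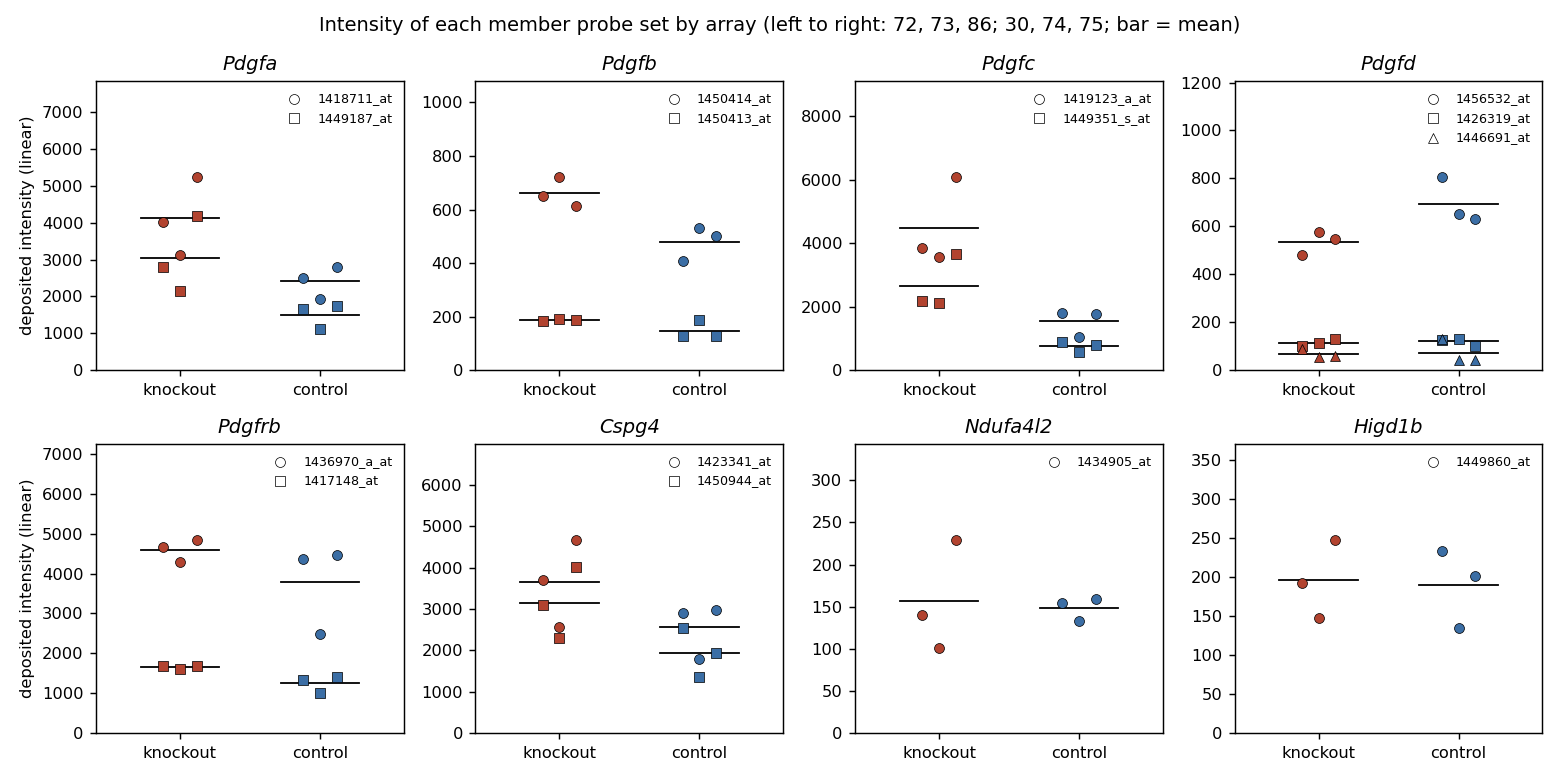
Deposited linear intensity of each member probe set (vertical axis, from 0) in the knockout arrays (red, left) and the control arrays (blue, right), with a symbol for each probe set and a bar at each group mean. Both Pdgfc probe sets lie higher on every knockout array than on any control array, and control 74 is the lowest array for 5 of the 8 genes.

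Pdgfc, which encodes PDGF-C, a ligand of PDGF receptor alpha, rose 2.84-fold. Its brighter probe set, 1419123_a_at, had intensities of 3861, 3549.7 and 6070.2 in knockouts 72, 73 and 86, against 1808, 1045 and 1761 in controls 30, 74 and 75. Every knockout array lay above every control array, with knockout 86 the highest and control 74 the lowest. On the log2 scale it averaged 12.08 ± 0.34 in knockout and 10.57 ± 0.46 in control arrays (SD, n = 3 each). The difference was 1.51 (SE 0.27, 95% confidence interval 0.86 to 2.16, limma adjusted p = 0.0433). The second probe set, 1449351_s_at, carries a suffix that marks probes shared between transcripts. It had 2183, 2110.4 and 3645 in the knockouts, against 896, 583 and 797 in the controls, again without overlap. In the fit over all 20130 probe sets above the filter, this second probe set rose by 1.74 (SE 0.25, limma adjusted p = 0.0352). In that fit 1419123_a_at had the same difference of 1.51 but did not pass (limma adjusted p = 0.0649). The gene's call rested on all 6 arrays: with any 1 left out the difference lay between 1.24 and 1.65 and the limma adjusted p between 0.0524 (without control 74) and 0.135 (without knockout 72).

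Pdgfa encodes PDGF-A, which like PDGF-C binds PDGF receptor alpha. Its brighter probe set, 1418711_at, had 4019, 3126 and 5227 in knockouts 72, 73 and 86, against 2497, 1929 and 2805 in controls 30, 74 and 75. All knockout arrays were above all control arrays, in the same order within the knockouts as for Pdgfc. The difference of 0.74 (SE 0.22, 1.66-fold, 95% confidence interval 1.16-fold to 2.39-fold) did not pass the threshold (limma adjusted p = 0.131, unadjusted p = 0.0127). Probe set 1449187_at had 2808, 2158 and 4178 in the knockouts, against 1652, 1116 and 1737 in the controls. It too did not overlap, at 0.95 (SE 0.28, limma adjusted p = 0.151 over probe sets).

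Pdgfb encodes PDGF-B, the ligand that binds both receptors and that endothelium supplies to mural cells. Probe set 1450414_at had 652, 720.1 and 614 in knockouts 72, 73 and 86, against 407, 531 and 501 in controls 30, 74 and 75. The groups did not overlap, and here knockout 73 was the highest array and control 30 the lowest. The difference was 0.43 (SE 0.15, 95% confidence interval 0.06 to 0.79), which did not pass the threshold (limma adjusted p = 0.18, unadjusted p = 0.0275). The dimmer probe set 1450413_at had 185, 193 and 189 in the knockouts, against 129, 188 and 127 in the controls. There control 74 reached the knockout values and the groups overlapped (0.30, 95% confidence interval -0.16 to 0.75).

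Pdgfd encodes PDGF-D, a ligand of PDGF receptor beta, and was the ligand with lower values. Its brightest probe set, 1456532_at, had 481, 578 and 547 in knockouts 72, 73 and 86, against 804, 651 and 630.1 in controls 30, 74 and 75. No knockout array reached a control array, and the knockout mean was 74.8% of control (95% confidence interval 58.4 to 95.8%). The difference of -0.42 (SE 0.15) did not pass the threshold (limma adjusted p = 0.18, unadjusted p = 0.0277). Probe set 1426319_at had 102, 112 and 129.9 in the knockouts, against 127, 130.2 and 103 in the controls, which overlapped (-0.15, 95% confidence interval -0.55 to 0.24). Probe set 1446691_at lay below the filter, with 88.0, 56.4 and 61.2 in the knockouts, against 132, 44.5 and 42.9 in the controls. Its single high value was that of control 30, and without a filter its difference was -0.02 (95% confidence interval -1.10 to 1.07).

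**Figure D2:**
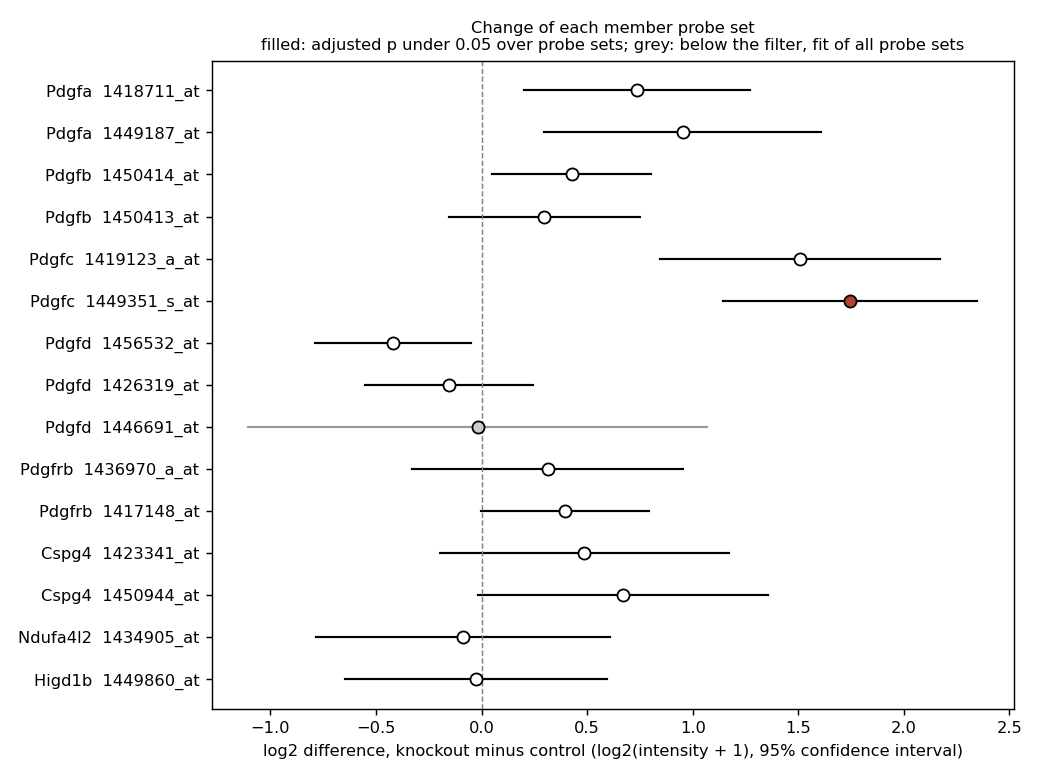
Log2 difference of each of the 15 member probe sets, knockout minus control, with its 95% confidence interval (horizontal axis). The 2 Pdgfc probe sets lie farthest to the right, and the filled one, 1449351_s_at, is the 1 probe set called over all probe sets.

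Whether the ligands changed unequally was tested on the within-array log2 difference between 2 ligands, for all 6 pairs, with a 2-sided exact permutation test. With 3 arrays in each group that test cannot give a p below 0.1. Such a difference between probe sets does not compare their abundance. The difference Pdgfc minus Pdgfd ran from 2.66 to 3.41 in knockout and from 0.67 to 1.48 in control arrays, a shift of 1.93 (exact permutation p = 0.1, adjusted p = 0.12 over the 6 pairs). Pdgfa minus Pdgfd shifted by 1.15 and Pdgfb minus Pdgfd by 0.84, each without overlap and with the same p. Pdgfa minus Pdgfc shifted by -0.77 and Pdgfb minus Pdgfc by -1.08, also at the smallest p. The pair Pdgfa minus Pdgfb shifted by 0.31, with 2.16 to 3.03 in knockout and 1.80 to 2.63 in control arrays, which overlapped (exact permutation p = 0.4). None of the 6 passed 0.05, which this design cannot reach.

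Pdgfrb encodes PDGF receptor beta, the receptor by which mural cells are recognised. Its brighter probe set, 1436970_a_at, had 4672, 4289.95 and 4842 in knockouts 72, 73 and 86, against 4372, 2491 and 4471 in controls 30, 74 and 75. In these intensities knockout 73 lay below controls 30 and 75, and control 74 alone stood far below the rest. After normalization knockout 73 (12.12 on the log2 scale) lay above control 30 (12.11) and below control 75 (12.22). The difference was 0.31 (SE 0.26, 95% confidence interval -0.31 to 0.94, limma adjusted p = 0.524), and without control 74 it was -0.0028. The second probe set, 1417148_at, had 1678, 1615 and 1681 in the knockouts, against 1317, 1001 and 1411 in the controls. These did not overlap, and the difference of 0.39 did not pass (SE 0.17, 95% confidence interval -0.0047 to 0.79, limma adjusted p = 0.269 over probe sets). On both probe sets the knockout arrays lay close together, with an SD of 0.04 and 0.02 on the log2 scale, against 0.55 and 0.28 in the controls.

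Cspg4 encodes the proteoglycan NG2, a surface marker of pericytes and other mural cells. Its brighter probe set, 1423341_at, had 3701, 2555 and 4665 in knockouts 72, 73 and 86, against 2909, 1797 and 2968 in controls 30, 74 and 75. Knockout 73 fell inside the control range (0.49, SE 0.28, 95% confidence interval -0.18 to 1.16, limma adjusted p = 0.362). Probe set 1450944_at had 3107, 2304 and 4009.7 in the knockouts, against 2548, 1351 and 1929 in the controls, with the same order within the knockouts (0.67, limma adjusted p = 0.275 over probe sets). Without control 74 the gene's difference was 0.22, and without knockout 73 it was 0.69.

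Ndufa4l2, a mitochondrial protein gene that is induced in hypoxia and high in pericytes, had 140.1, 101 and 229 in knockouts 72, 73 and 86, against 155, 133 and 159 in controls 30, 74 and 75. The knockout arrays held both the highest and the lowest value (SD 0.60 on the log2 scale, against 0.11 in the controls). The difference was -0.09 (95% confidence interval -0.77 to 0.59, limma adjusted p = 0.887), and it was 0.17 without knockout 73 and -0.41 without knockout 86. Higd1b, named for a hypoxia-inducible domain and a pericyte marker in mouse tissues, had 192, 147 and 247 in the knockouts, against 233, 134 and 201 in the controls. It differed by -0.03 (95% confidence interval -0.63 to 0.58, limma adjusted p = 0.965), a difference whose sign changed with no normalization between arrays (0.051). With 3 arrays a group, these intervals still include differences of 0.5 in either direction for both genes.

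**Figure D3:**
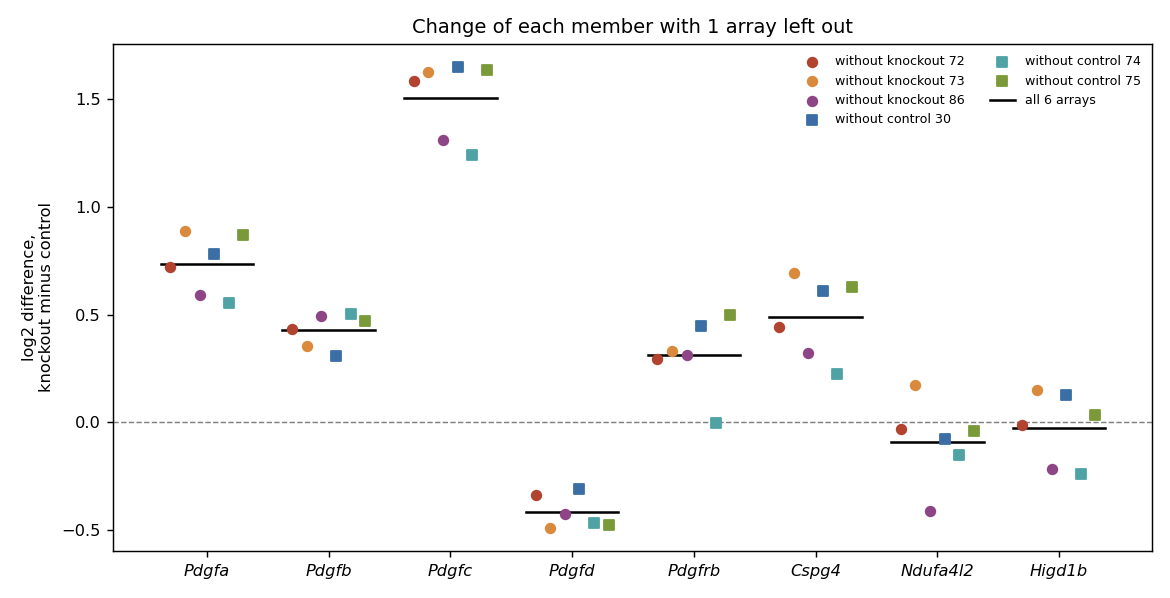
Log2 difference of each member, knockout minus control, over all 6 arrays (bar) and with 1 array left out (points, coloured by the array left out). The 4 ligands stay on 1 side of 0 in every fit, while Pdgfrb comes to -0.0028 without control 74 and Ndufa4l2 and Higd1b lie on both sides of 0.

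Across members the arrays did not take the same order. On the normalized scale knockout 86 was the highest array for 5 of the 8 genes, and control 74 was the lowest for 5. Over the 14 probe sets above the filter, knockout 86 was the highest for 8 and control 74 the lowest for 9. For Pdgfb, in contrast, knockout 86 was the lowest of the knockouts and control 74 the highest of the controls. Without knockout 86, which leaves arrays labelled M, the differences were 1.31 for Pdgfc, 0.59 for Pdgfa, 0.49 for Pdgfb and -0.43 for Pdgfd, and 0 of the 8 members passed the threshold (limma; 3 had an unadjusted p under 0.05).

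As a description of likeness, the 3 genes with the highest Pearson correlation to each member over the 6 arrays were taken from the other 10653 genes. For Pdgfc they were Lhfp, Hmgb2 and Fam171b (r = 0.996, 0.996 and 0.995), for Pdgfa Exosc10, Rnf150 and Tmem45a (0.998, 0.996 and 0.995), for Pdgfb Gramd1a, Ccl6 and Limk1 (0.994, 0.993 and 0.986), and for Pdgfd Srbd1, Stag2 and Hapln3 (0.996, 0.987 and 0.984). The mural genes gave Atf6b, Cenpb and Rbbp7 for Pdgfrb, Rnaseh2c, Atp8b1 and Ibtk for Cspg4, Poglut1, Smg6 and Crybb3 for Ndufa4l2 and LTO1, Bcl7b and Fam241a for Higd1b, with r from 0.961 to 0.997. With 6 arrays and this many genes, values this high are reached for every member.

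The receptors that these ligands meet were looked at next. Pdgfra, the gene of PDGF receptor alpha and a fibroblast marker, averaged 10.08 ± 0.22 in knockout and 9.33 ± 0.51 in control arrays on the log2 scale (SD, n = 3 each), without overlap. Its difference of 0.75 did not pass the threshold (SE 0.26, limma adjusted p = 0.173). The Pdgfra difference was 0.457 with the mean of its probe sets and 0.459 without control 30. Of the other 4 related receptor genes, Csf1r, the macrophage growth factor receptor, which also stands among the macrophage markers below, differed by 1.58 (SE 0.49, limma adjusted p = 0.136) and the receptor-like gene Pdgfrl by 0.52 (limma adjusted p = 0.288). Kit and Flt3 lay below the filter. Thus 0 of 3 tested passed, with 2 higher at an unadjusted p under 0.05.

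Among genes of proteins that bind PDGFs or their receptors, 0 of 4 passed the threshold (limma; 1 higher at an unadjusted p under 0.05). The co-receptor Nrp1 differed by 0.47 and the endocytic receptor Lrp1 by 0.42 (limma adjusted p = 0.156 and 0.249), both without overlap. The matrix protein Sparc, which binds PDGF-B, differed by 0.19, and Nrp2 by -0.58 with overlap. Among proteases that process PDGFs, 1 of 5 tested fell and 0 rose, where 0.657% of all genes fell and 1.76% rose. The proprotein convertase Pcsk6 fell by 1.10 on the log2 scale (SE 0.18, limma adjusted p = 0.0349), with 7.23 to 7.38 in knockout and 8.12 to 8.76 in control arrays. It passed in 2 of the 6 fits with 1 array left out, those without control 30 or control 74, and did not pass with no filter (adjusted p = 0.0835). The related convertase Pcsk5 differed by 0.47, and Plat, the tissue plasminogen activator that releases active PDGF-C, by 0.57 with overlapping groups (limma adjusted p = 0.128 and 0.235). Plau, the urokinase that activates PDGF-D, lay below the filter on both of its probe sets.

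The VEGF branch of the family had 0 of 5 genes past the threshold (limma; 1 higher at an unadjusted p under 0.05). Its placental growth factor gene, Pgf, had 9.07 to 10.14 in knockout and 7.21 to 8.45 in control arrays on the log2 scale, a difference of 1.69 (SE 0.38, limma adjusted p = 0.0742). The lymphatic growth factor gene Vegfd stood at -0.64 and Vegfb at -0.50 (limma adjusted p = 0.251 and 0.291).

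Of the adaptors and effectors that bind activated PDGF receptors, 0 of 23 passed the threshold (limma; 2 higher and 2 lower at an unadjusted p under 0.05), and the median difference was 0.08. Of all genes, 21.4% reached that unadjusted level. Knockout arrays were higher without overlap for 3 of the 23 and lower for 3, as for 13% and 15.1% of all genes. The phosphatase genes Ptpn1 and Ptpn2 stood at 0.57 and 0.49, the scaffold Gab1 at -0.94 and the PDZ adaptor Slc9a3r2 at -0.46 (limma adjusted p = 0.1, 0.166, 0.121 and 0.126), each without overlap. Genes induced by growth factors through ERK, several of which are feedback inhibitors of it, had 2 of 12 tested past the threshold. Both were higher, where 1.76% of all genes rose. At any size 11 of 12 were higher, from 0.02 (Dusp4) to 1.48 (Spry4), where 43.1% of all genes were. Etv5, an ETS transcription factor, rose by 1.25 (SE 0.16, limma adjusted p = 0.0173), with 8.17 to 8.45 in knockout and 6.76 to 7.22 in control arrays. Spred1, an inhibitor of the Ras to ERK step, rose by 0.83 (SE 0.15, limma adjusted p = 0.0433), with 9.32 to 9.61 in knockout and 8.39 to 8.75 in control arrays. The feedback inhibitors Spry4 and Spry2 stood at 1.48 and 0.67 without overlap and did not pass (limma adjusted p = 0.0651 and 0.0801). With 1 array left out, Spred1 passed in 0 of 6 fits and Etv5 in 2 of 6, those without control 30 or control 74. The Spred1 call was also lost with median centring, with the mean of its probe sets (0.59) and with no filter (limma adjusted p = 0.065, 0.0818 and 0.107).

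**Figure D4:**
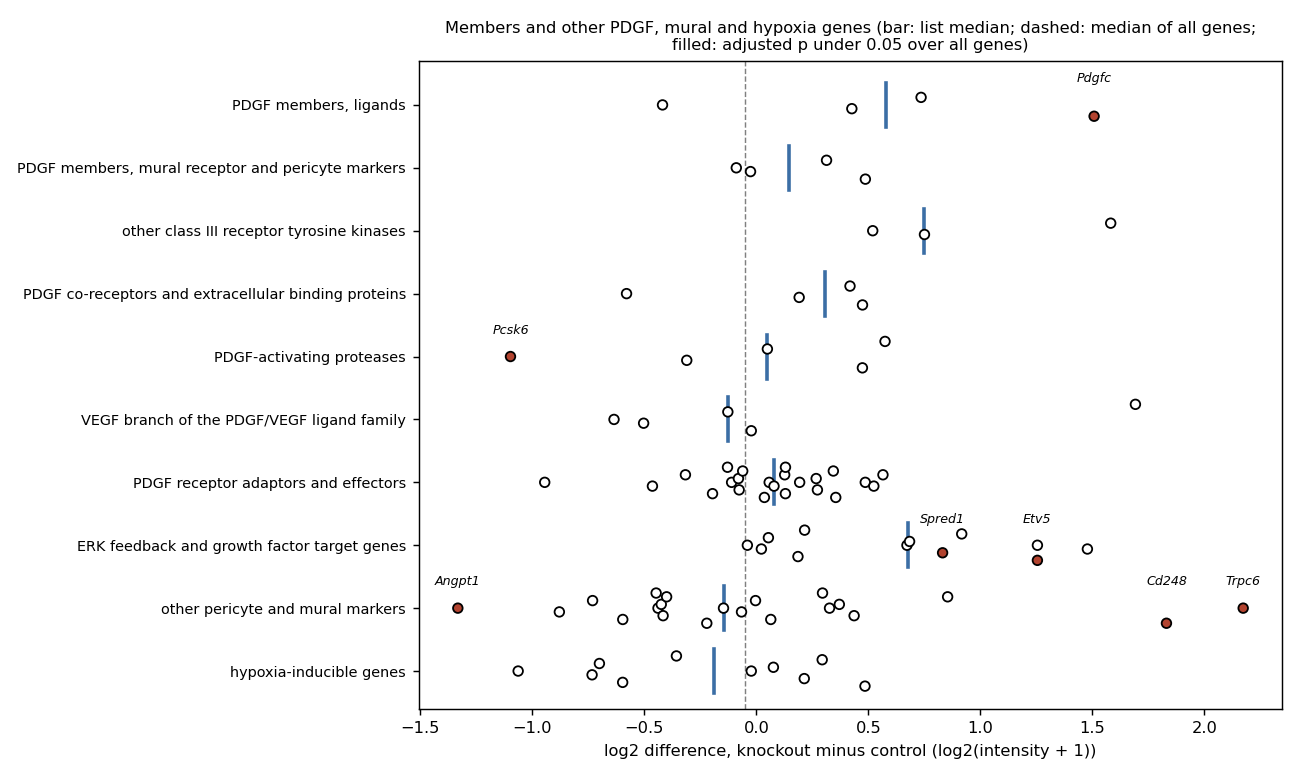
Log2 difference, knockout minus control, of every tested gene in the member lists and in 8 further lists (1 row per list, points are genes, the blue bar is the list median and the dashed line the median of all genes). Filled points passed an adjusted p of 0.05 over all genes, and among the members only Pdgfc did.

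Other pericyte and mural markers split. Of 21 tested, 2 rose and 1 fell, where 1.76% of all genes rose and 0.657% fell. At any size 8 were higher and 13 lower, and the list median was -0.15. Cd248, the gene of endosialin, which mural and fibroblast-like cells carry, had 10.72 to 11.00 in knockout and 8.59 to 9.55 in control arrays on the log2 scale, and rose by 1.83 (SE 0.25, limma adjusted p = 0.0191). The cation channel gene Trpc6 rose by 2.17 (SE 0.33, limma adjusted p = 0.0291), but its control mean of 5.49 lay under the filter level of 6.50. It therefore entered the test through its knockout signal, and its place in the count is no support. The same holds for Tbx18, among the 8 higher, with means of 6.77 in knockout and 6.34 in control arrays. Angpt1, the ligand of the endothelial receptor Tek, fell by 1.33 (SE 0.19, limma adjusted p = 0.0223), with 7.10 to 7.52 in knockout and 8.33 to 8.90 in control arrays. Notch3, the mural Notch receptor, stood at -0.88 without overlap (limma adjusted p = 0.107) and passed without control 74 (-1.14, adjusted p = 0.0258). With 1 array left out, Cd248 passed in 3 of 6 fits and lost its call without knockout 72, knockout 73 or knockout 86. Trpc6 passed in 2 of 6, those without control 30 or control 74, and Angpt1 in 1, that without control 74. With no filter neither Trpc6 nor Angpt1 passed (limma adjusted p = 0.0622 and 0.0541). Cox4i2, Foxf2 and Atp13a5 lay below the filter.

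Since Ndufa4l2 is a hypoxia-induced gene, 13 other genes induced by hypoxia were set beside it. Of 10 tested, 0 passed the threshold (limma; 2 lower at an unadjusted p under 0.05), and the median difference was -0.19. Ndrg1 stood at -0.60 without overlap and the pyruvate dehydrogenase kinase gene Pdk1 at -1.06 with overlap (limma adjusted p = 0.107 and 0.176). The glucose transporter gene Slc2a1 stood at 0.29 and the prolyl hydroxylase gene P4ha1 at 0.48.

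Markers of other cell types were summed on each array beside the members, and their part in the member values was not tested. All 11 macrophage markers tested were higher in knockout arteries, 8 without overlap. Over all genes, 43.1% were higher and 13% were higher without overlap. The control mean of Cd68, 1 of the 11, was 6.25 on the log2 scale, under the filter level of 6.50. Cd68 thus entered the test through its knockout signal, and its place in these counts is no support. The 11 had a summed intensity of 9635 to 35092 in knockout and 3599 to 6708 in control arrays. Macrophages can express Pdgfb, and knockout 73 had both the highest macrophage sum and the highest Pdgfb value. The 0 of 11 past the threshold (limma) included Mrc1 at 1.42 (adjusted p = 0.0668), and 9 were higher at an unadjusted p under 0.05. Of all genes, 21.4% reached that level in either direction. Endothelial markers, from the cells that supply PDGF-B, were lower for 12 of 12, with differences from -0.86 (Pecam1) to -0.0048 (Erg). Over all genes, 43.1% were higher. By limma 0 of the 12 passed the threshold. At an unadjusted p under 0.05, 5 were lower, where 21.4% of all genes reached that level in either direction. The endothelial sums were 19814 to 26878 in knockout and 27284 to 30706 in control arrays. Fibroblast markers summed to 39876 to 45459.8 in knockout and 33772 to 45173 in control arrays. Of 10 tested, 6 were higher and 4 lower (limma; 3 higher and 1 lower at an unadjusted p under 0.05). Their median difference was 0.10, and 1 of 10, Mfap5, passed the threshold (1.08, limma adjusted p = 0.0224), where 1.76% of all genes rose. With 1 array left out Mfap5 passed in 1 of 6 fits, that without control 74.

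Smooth muscle markers summed to 53393 to 63403 in knockout and 58328 to 79245 in control arrays, and 0 of 10 passed (limma; 4 lower at an unadjusted p under 0.05). Of all genes, 21.4% reached that unadjusted level in either direction. At any size 8 of the 10 were lower and 2 higher, and the median difference was -0.34. Knockout arrays were lower without overlap for 4, as for 15.1% of all genes. Control 74 had the lowest smooth muscle sum and the highest adipocyte sum of the controls. Over all 6 arrays control 74 was the lowest for Pdgfrb, Cspg4, Pdgfa and Pdgfc, whereas knockout 73 had the lowest smooth muscle sum (53393). Fat and lymph tissue had been dissected off the arteries, per the labels. Adipocyte markers summed to 15802 to 25685 in knockout and 15568 to 38753 in control arrays (limma; 0 of 5 past the threshold, 0 at an unadjusted p under 0.05). Schwann cell and nerve markers were lower for 5 of 5 tested, where 43.1% of all genes were higher. By limma 0 passed the threshold and 4 were lower at an unadjusted p under 0.05. Their sums were 5532 to 9319 in knockout and 10608 to 13835 in control arrays. Platelet markers, from a further PDGF source, summed to 1621 to 1826 in knockout and 1076 to 1893 in control arrays (limma; 0 of 5 past the threshold, 1 higher at an unadjusted p under 0.05). For lymphocytes 1 of 7 markers lay above the filter, and for mesothelium 0 of 6. Proliferation markers rose in 5 of 5 tested, with sums of 3938 to 6804 in knockout and 257 to 282 in control arrays, and the sum was highest in knockout 86, the array with the highest Pdgfc and Pdgfa. The control means of all 5, 4.65 to 6.24 on the log2 scale, lay under the filter level, so these genes entered the test through their knockout signal and their count is no support.

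**Figure D5:**
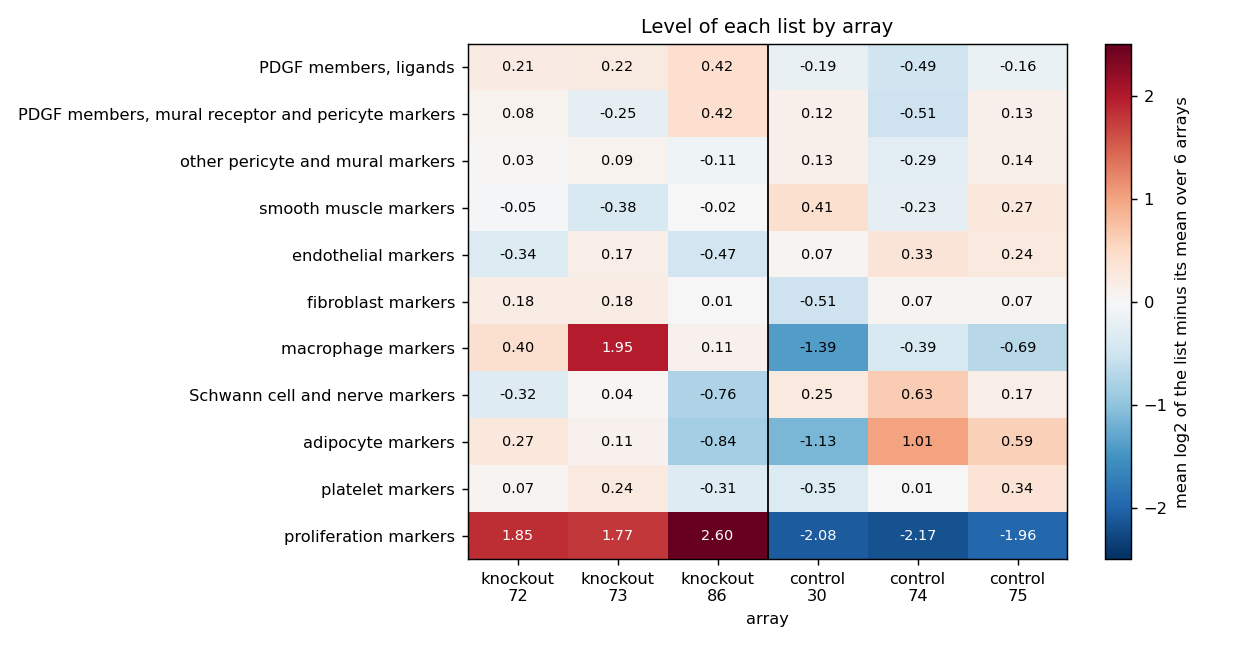
Mean log2 value of each list on each array, as the deviation from that list's mean over the 6 arrays (rows are lists, columns are arrays, knockouts left of controls). The ligand row is positive on all knockout arrays (0.21, 0.22 and 0.42) and negative on all control arrays (-0.19, -0.49 and -0.16), while the mural row runs from -0.25 to 0.42 in knockouts and from -0.51 to 0.13 in controls.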

How the data were processed

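Total RNA of mesenteric arteries from 3 knockout and 3 control mice was biotin-labelled and hybridised to Affymetrix arrays, per the labels. In the deposited table each probe set has a linear intensity on each array. Probe summary and array scaling by the authors are not given in the sources used here. The table has no detection calls. Nothing in the labels ties animals to litters or days, and the 3 arrays a group limit precision.

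Symbols came from the platform annotation: 34945 probe sets had 1 symbol, 932 several and 9160 none. Intensities became log2(intensity + 1), which understates changes of dim genes, and were quantile normalized. Probe sets whose mean lay under 6.50, the median over probe sets with 1 symbol, were left out. Each gene was its brightest remaining probe set (10654 genes). A second fit used all 20130 remaining probe sets. Both used limma 3.58.1 (R 4.3.3), lmFit and eBayes, 2-sided, with Benjamini-Hochberg adjustment, and the procedure was tested on simulated data.

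Members, gene lists, motifs and tests were chosen with earlier results of these data known. Named were all members, Itgb1, Tagln, up to 4 genes per list with the smallest p, and the 3 genes most like each member. Tagln differed by -0.33 (limma adjusted p = 0.231). Cell type lists are mostly given as counts and sums. Alternatives are in the closing section.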

Additional observations from a re-analysis of the deposited data

How the results depend on the processing

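Alternatives were a filter at the 70th percentile or none, no normalization, median centring, a pseudocount of 16, the mean of a gene's probe sets, a trended robust prior, array weights, each array left out, and, chosen after seeing the data, the filter median over all probe sets (6.10). With no filter, where more probe sets are tested, the Pdgfc call was lost (1.51, limma adjusted p = 0.0979). This left 0 members and 0 member probe sets past the threshold. The cause was not tested. With array weights 2 member probe sets and 1131 genes passed, and Itgb1 passed (-0.78, adjusted p = 0.0314). With the 70th percentile filter 141 genes passed, where fewer genes are tested. With 1 array left out, members past the threshold were 0 throughout, member probe sets 0 to 1 (1 without control 30), and all genes 45 to 240.0. Differences then ranged from 1.24 to 1.65 for Pdgfc. For members that were not called, signs turned for Pdgfrb (-0.0028 without control 74, range to 0.50), Ndufa4l2 (-0.41 to 0.17, positive without knockout 73) and Higd1b (-0.24 to 0.15, positive without knockout 73, control 30 or control 75, and 0.051 with no normalization). Pdgfa, Pdgfb and Pdgfd kept sign and side of the threshold in all 15 alternatives, at 0.56 to 0.89, 0.31 to 0.50 and -0.49 to -0.29. The 6 ligand pairs kept their sign in all 6 alternatives run on them. Their side of the threshold could not change, since the exact permutation test cannot give a p below 0.1. Of the values of other named genes, 429 kept sign and side, 32 lost their call and 13 gained one. No paired analysis was possible because the animal numbers of knockouts and controls differ.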
